A study of Bos taurus with 30 samples.

Results

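Sites of open chromatin that first appeared in bovine 8-cell embryos were examined by ATAC-seq. They were still open in morula and in the inner cell mass (ICM), and had no reproducible peak in embryonic stem cells (ESC). They were chosen by the presence and absence of peaks in the control libraries of 7 stages and in the 8-cell libraries cultured with a transcription inhibitor. An 8-cell region was a stretch covered by overlapping peaks and supported by at least 2 of the 3 8-cell control replicates, and regions of the other stages were made in the same way. A member is an 8-cell region that shared no base with a region of germinal vesicle (GV) oocytes, 2-cell embryos, 4-cell embryos or ESC, shared at least 1 bp with a morula region and an ICM region, and was not overlapped by peaks in all 3 inhibited 8-cell libraries. Of 120364 8-cell regions, 13758 (11.4%) were members, and they covered 11.4 of 98.6 Mb. The count depended on the definition of a region: it was 21060 with peaks of any replicate, 8675 with peaks of all 3, 8460 with a stricter peak threshold (−log10 q of 3 or more) and 8061 without replicate 3 of every stage.

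The libraries came from pools of GV oocytes, which were taken before maturation, and of in vitro produced embryos at the 2-cell (30 to 32 h after insemination), 4-cell (2 days), 8-cell (3 days) and morula (5 days) stages, each with at least 500 cells. ICM were isolated by immunosurgery from blastocysts 7 days after insemination. ESC were of CTFR-bESC lines grown on irradiated mouse embryonic fibroblasts. Transcription-blocked embryos (TBE) of the 2-, 4- and 8-cell stages were cultured with α-amanitin at 50 μg/ml from day 1, beside untreated embryos. Per the study's methods, the embryos of a collection were split between the 2 arms. Each of the 10 groups had 3 replicates, from separate oocyte collections for oocytes and embryos. No source used here says whether the 3 ESC replicates were separate cultures, and in their case the spread may be technical.

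In cattle the embryo's own genome is switched on chiefly at the 8-cell stage, when stored maternal RNA gives way to new transcripts. ATAC-seq cuts and tags accessible DNA with a transposase, so a peak marks DNA that is not packed into closed chromatin, as at promoters and enhancers. α-amanitin blocks RNA polymerase II. The ICM is the pluripotent part of the blastocyst from which the fetus and part of the extraembryonic membranes arise. ESC are the self-renewing lines derived from it in culture. An ICM site without an ESC region was thus called in the embryo's cells and not in their cultured relatives.

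The members were what remained of the 8-cell regions after the conditions of the rule were applied in turn. Of all 8-cell regions, 97173 (80.7%) had no counterpart in GV oocytes, 2-cell or 4-cell embryos. Of these, 60757 (62.5%) overlapped a morula region, and 22597 of those (37.2%) also overlapped an ICM region. Of the sites kept to ICM, 15156 (67.1%) had no ESC region, where 74.5% of all 8-cell regions and 43.5% of all 8-cell regions with an ICM region had none. Of the 15156, 13758 (90.8%) lacked a peak in at least 1 8-cell TBE library. The largest reduction was thus between morula and ICM, and the smallest came from the TBE condition. These counts follow from the rule and were not tested.

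3 neighbouring sets of 8-cell regions were used for comparison. The 5350 regions of the ESC-positive set met every condition but overlapped an ESC region. The 33106 regions of the 8-cell and morula set met the conditions up to morula and overlapped neither an ICM nor an ESC region. The 1398 regions of the transcription-independent set differed from the members only in having a peak in all 3 8-cell TBE libraries.

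In each library of the stages that define them, most members had a peak. The rule keeps these shares high, since a region needed 2 of 3 replicates. Peaks were found at 90.8%, 87.2% and 97.3% of members in 8-cell replicates 1, 2 and 3. In the 3 morula libraries the shares were 93.6%, 99.2% and 98.6%. In the ICM libraries they were 84.2%, 84.5% and 92.0%, the lowest of the stages at which members had to be present. A peak in all 3 replicates was found at 10356 members (75.3%) in 8-cell embryos, at 12610 (91.7%) in morula and at 8663 (63.0%) in ICM. Over all 8-cell regions these shares were 66.9%, 56.2% and 26.4%, and the rule itself sets members above them in morula and ICM. Over all 9 libraries, 6561 members (47.7%) had a peak in each, a share close to the 48.3% of the ESC-positive set.

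Absence in the earlier stages and in ESC was not complete library by library, since a peak in 1 replicate does not make a region. In the GV oocyte libraries 2.50%, 2.59% and 3.45% of members had a peak, and in the 4-cell libraries 4.75%, 1.74% and 0.879%. The 2-cell libraries had peaks at 0.0509%, 0.0654% and 0.552% of members, and their lists were short, with 1002, 1262 and 6440 peaks. In ESC replicates 1, 2 and 3 the shares were 0.589%, 15.8% and 5.01%, so ESC replicate 2 alone accounted for most ESC peaks at members. In all, 10842 members (78.8%) had no peak in any ESC library, against 64.6% of all 8-cell regions. All 8-cell regions had a peak in 17.7% to 18.4% of cases in the GV oocyte libraries, 0.555% to 3.03% in the 2-cell, 7.05% to 19.3% in the 4-cell and 15.7% to 32.5% in the ESC libraries, and the rule set members below these. At the limit of the ESC condition lay 2886 members with a peak in 1 ESC library, 30 with peaks of 2 ESC libraries that did not overlap each other, and, just outside, 2959 regions of the ESC-positive set with a peak in at most 2 ESC libraries. At the limit of the TBE condition lay 1817 members with a peak in 2 8-cell TBE libraries and the 1398 regions with a peak in all 3.

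**Figure D1:**
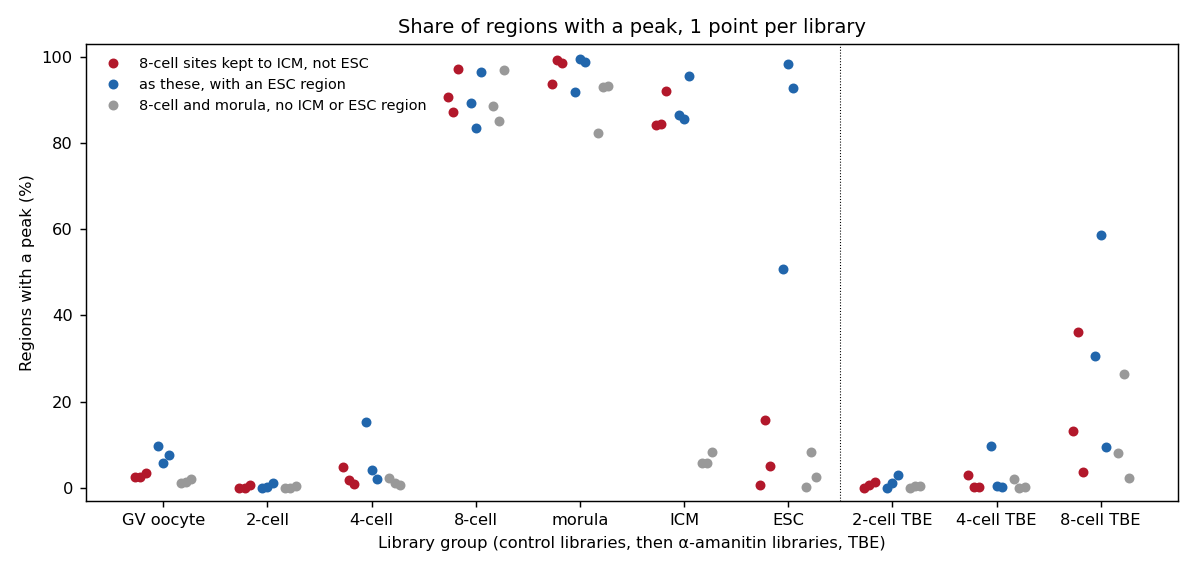
Percent of regions with a peak (y axis) in each of the 30 libraries, grouped by stage on the x axis with the α-amanitin libraries (TBE) to the right of the dotted line; each point is 1 library, red for the members, blue for the ESC-positive set and grey for the 8-cell and morula set. Members lie between 84.2% and 99.2% in the 8-cell, morula and ICM libraries and at 15.8% or less in the ESC libraries, which follows from the rule, and in the 8-cell TBE libraries they lie between the blue and the grey points of the same replicate.

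Depth differed between libraries and bears on every share of regions with a peak. Read numbers per library were not given in the sources used here. As a stand-in, the chance pileup that the peak caller assumed for a library, which scales with its tags, was worked back for 26 of the 30 libraries from the fold enrichment and p-value of their peaks, and is called its background level. For 8-cell replicates 1, 2 and 3 the level was 1.31, 0.806 and 0.808, and for the 8-cell TBE replicates it was 1.24, 3.82 and 0.347. TBE replicate 2 was thus deeper than every 8-cell control and had 247513 peaks, against 125253 to 156569 in the controls, while TBE replicate 3 was shallower than all of them and had 50090. The ICM libraries had levels of 0.493, 0.438 and 1.06, and the ESC libraries 0.175, 0.656 and 0.404, so that 1 ESC library was deeper than 2 of the ICM libraries.

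Because the rule used the 8-cell TBE libraries, their shares at members are a description. A peak was found at 13.3% of members in 8-cell TBE replicate 1, at 36.2% in replicate 2 and at 3.76% in replicate 3, where all 8-cell regions gave 29.7%, 44.7% and 21.5%. No TBE library had a peak at 8246 members (59.9%), 1 library had one at 3695 (26.9%) and 2 libraries at 1817 (13.2%). Of all 8-cell regions, 52.7% had no TBE peak, 17.7% had one in 1 library and 10.6% in 2. A lack of TBE peaks was thus not particular to members. The order of the libraries was that of their background levels. Where a member did have a TBE peak, its median fold enrichment, the height of the peak relative to its surroundings in that library, was 3.30, 2.51 and 3.54 in replicates 1, 2 and 3, beside 3.37, 2.49 and 3.79 over all peaks of these libraries.

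To compare the TBE libraries with controls that had not defined the sites, each 8-cell control was held out in turn. Sites were then taken from peaks shared by the other 2 controls and had to meet the rule without its TBE condition, which gave 12810, 13400 and 11841 sites. Held-out controls 1, 2 and 3 had a peak at 89.5%, 85.4% and 96.4% of these sites. The TBE libraries had one at 20.8%, 41.0% and 12.6%, as the mean over the 3 sets of sites. The means were 90.5% ± 5.56 (SD, n = 3) and 24.8% ± 14.7 (SD, n = 3), a difference of 65.7 percentage points. The sites entered through peaks of the other controls, which favours controls over TBE libraries, so no p is read from this difference, and the same shares over regions not chosen for their later fate serve as its reference. At 8-cell regions that already had a region in GV oocytes, 2-cell or 4-cell embryos, held-out controls had a peak at 96.3%, 92.1% and 96.7% and TBE libraries at 89.7%, 94.9% and 75.8%. At all regions new at the 8-cell stage the controls had 79.9%, 78.3% and 93.1% and the TBE libraries 16.0%, 32.6% and 9.53%. The TBE shares of sites kept to ICM and not ESC were thus far below those of older regions and somewhat above those of new regions at large in each of the 3 TBE libraries, as were their control shares. When each of the 6 libraries was limited to its 50090 strongest peaks, as many as the shortest list held, the controls had 88.2%, 85.7% and 90.9% and the TBE libraries 11.4%, 11.8% and 11.1%.

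Sites kept to ICM but not ESC had fewer TBE peaks than sites that also had an ESC region. With an ESC region, held-out controls had a peak at 88.9%, 82.7% and 95.8% of sites and TBE libraries at 52.1%, 71.1% and 36.6%. Within the controls the ESC-positive minus the ESC-negative share was -0.617, -2.72 and -0.670 percentage points. Within the TBE libraries it was 31.3, 30.1 and 24.0 points. The difference between the sets thus differed between TBE and control libraries by 29.8 points (n = 3 against 3). Both sets were peaks of 2 other controls, which holds the control shares near their ceiling and the difference between the sets near 0 there. The comparison therefore rests on the 3 TBE libraries, and no p is read from it. With the 50090 strongest peaks per library the TBE shares were 43.7%, 40.9% and 39.1% with an ESC region, beside 11.4%, 11.8% and 11.1% without one.

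The TBE shares were lowest at sites without an ICM region. Where a site had a morula region and neither an ICM nor an ESC region, held-out controls had a peak at 86.4%, 82.6% and 95.9% and TBE libraries at 11.0%, 27.9% and 5.68%. In every TBE library the share was therefore lowest for these sites, intermediate for sites kept to ICM and highest for sites with an ESC region, although replicates differed widely. The difference between sites without an ICM region and sites kept to ICM was not tested.

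**Figure D2:**
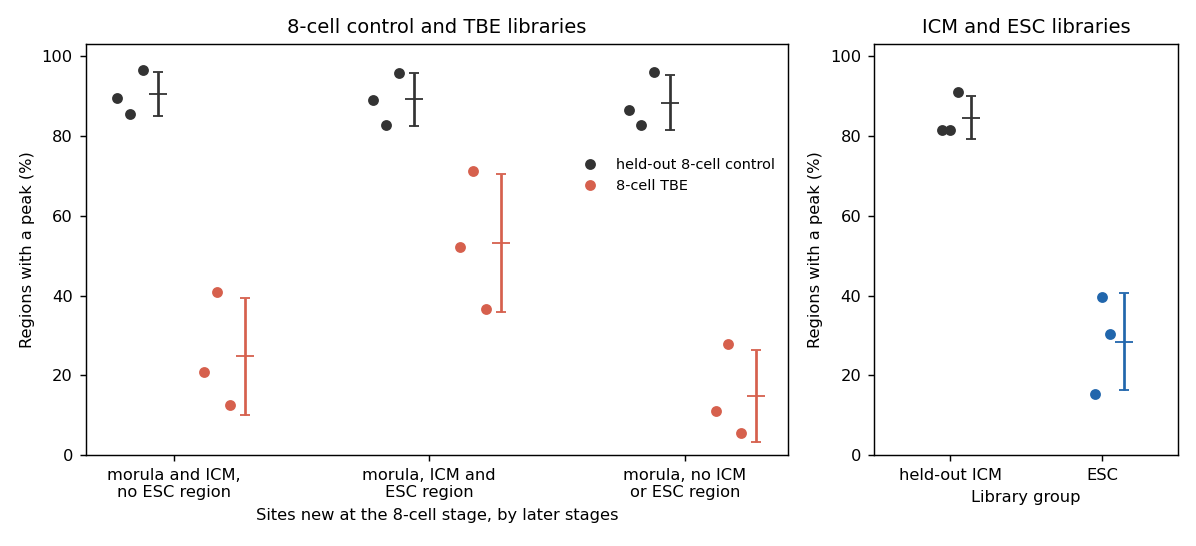
Percent of sites with a peak (y axis) in libraries that did not define the sites. Left, held-out 8-cell controls (black) and 8-cell TBE libraries (red) for 3 sets of sites new at the 8-cell stage; right, held-out ICM (black) and ESC (blue) libraries at sites chosen without the ESC condition. Points are libraries, n = 3 per group, and the bars beside them are mean ± SD. Sites were chosen through controls on the left and through ICM on the right, which places the black points high; red points are highest where an ESC region is present.

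The contrast between ICM and ESC was examined in the same manner, with each ICM library held out and the ESC condition dropped. The 3 sets held 15278, 15257 and 13703 sites that were new at the 8-cell stage, in morula and in the other 2 ICM libraries. Held-out ICM libraries had a peak at 81.4%, 81.4% and 90.9% of them, and ESC libraries at 15.4%, 39.6% and 30.4%. The highest ESC share came from the library with the most peaks, 142643. The means were 84.6% ± 5.45 and 28.5% ± 12.2 (SD, n = 3 each), which is 56.1 points apart. As the sites entered through ICM peaks, higher ICM shares follow in part from the choice, and no p is read from this difference either. For reference, at all 8-cell regions with an ICM region by the other 2 ICM libraries, held-out ICM libraries had a peak at 87.8%, 85.2% and 95.1% and ESC libraries at 42.2%, 68.0% and 61.6%. The ESC shares of the new sites were below these in each of the 3 libraries. Restricted to the 39333 strongest peaks of each library, the ICM libraries had 77.0%, 85.4% and 79.0% and the ESC libraries 17.9%, 19.6% and 17.7%.

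Members differed among themselves in a graded way. The median length was 619 bp for members without a TBE peak, 768 bp with a peak in 1 TBE library and 781 bp with a peak in 2. Median fold enrichment in the 8-cell controls, averaged over replicates, went the other way, with 4.42, 4.27 and 4.09. A peak in at least 1 ESC library was found at 15.1%, 26.4% and 38.2% of the 3 classes, and one in at least 1 4-cell control library at 2.62%, 10.5% and 21.6%. Members with a TBE peak thus more often also had a peak in an ESC or a 4-cell library. For the 1398 regions just outside the TBE condition the shares were 48.4% for ESC and 39.6% for 4-cell embryos. Their median length was 734 bp and their 8-cell fold enrichment 4.23, so these 2 gradients did not extend to them. Read from the other side, 35.4% of members without any ESC peak had an 8-cell TBE peak, against 57.3% of members with an ESC peak, 65.4% of ESC-positive regions with peaks of at most 2 ESC libraries and 66.3% of those with peaks of all 3. The ESC, 4-cell and TBE peaks were used by the rule, while length and fold enrichment were not. TBE replicate 2, the deepest, had a peak at 4984 members, where replicates 1 and 3 had one at 1828 and 517. Longer regions have more bases in which to meet a peak. The part of length and depth in the gradient was not tested.

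The 2- and 4-cell TBE libraries were not used by the rule, and they bear on whether these sites were open earlier in embryos without transcription. Few members had a peak there. At least 1 of the 3 2-cell TBE libraries had a peak at 265 members (1.93%), against 8.67% of all 8-cell regions, and at least 1 4-cell TBE library at 460 members (3.34%), against 14.6% of all 8-cell regions. At least 2 libraries agreed at only 8 members (0.0581%) in 2-cell TBE and at 8 in 4-cell TBE, where all 8-cell regions gave 2.63% and 3.10%. All 8-cell regions include those already open at the 4-cell stage, which the rule removed, so lower shares at members are in part set by the choice.

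The ESC-positive set, chosen with the same conditions on earlier stages, is the closer comparison. In 4-cell TBE replicates 1, 2 and 3 members had 3.07%, 0.196% and 0.138%, beside 9.79%, 0.393% and 0.243% in the ESC-positive set. The untreated 4-cell libraries showed a like gap in peaks that had not made a region, with 4.75%, 1.74% and 0.879% of members and 15.3%, 4.11% and 2.00% of the ESC-positive set. Members were lower in 3 of 3 libraries, with a mean difference of -2.34 percentage points ± 3.80 (SD, n = 3), and replicate 1, which had 32260 peaks where the others had 4166 and 3094, carried nearly all of that mean (exact sign-flip permutation test, two-sided, p = 0.25, the smallest that 3 libraries allow). Without replicate 1 in every stage the mean difference was -0.249 points. In 2-cell TBE the shares were 0.0291%, 0.625% and 1.33% for members and 0.0374%, 1.10% and 3.07% for the ESC-positive set, again lower in 3 of 3 libraries (mean difference -0.740 points, exact sign-flip permutation test, n = 3, p = 0.25). With autosomes only, and where 50% of a region had to be covered, they were lower in 2 of 3 libraries, and without replicate 1 in every stage the mean difference was -1.68 points. With the 925 strongest peaks of each 2-cell TBE library members were lower in 2 of 3 libraries, and the mean difference shrank to -0.0107 points.

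In height the members lay close to the sites that ESC kept. Their median fold enrichment was 4.18, 4.28 and 4.71 in the 8-cell libraries, 5.39, 5.41 and 5.24 in morula and 4.57, 4.27 and 4.44 in ICM, always over regions with a peak in the library. The ESC-positive set had 4.15, 4.08 and 4.58, then 5.06, 5.75 and 5.49, then 4.74, 4.41 and 4.71. On the log2 scale members were above it in 3 of 3 8-cell libraries by a mean of 0.039 ± 0.030 (SD) and below it in 3 of 3 ICM libraries, with a mean difference of -0.060 ± 0.021 (exact sign-flip permutation test, n = 3, p = 0.25 for each, the smallest possible). In morula the sign was mixed, with a mean of -0.022 ± 0.098 (SD, n = 3). Over all 9 libraries the mean difference was -0.014 ± 0.068 (SD, exact sign-flip permutation test, p = 0.535), which was smaller than the spread between libraries. Libraries of 3 stages are not replicates of the same group, and the sign differed between 8-cell and ICM. This pooled value therefore does not show that the sets were alike at each stage.

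Against the other peaks of their own library members were moderately high. The median member stood at percentile 62.2, 65.8 and 68.2 of all peaks in the 8-cell libraries, at 74.4, 75.6 and 71.4 in morula and at 56.6, 62.0 and 62.4 in ICM. Members thus ranked highest in morula, as did the ESC-positive set, with 68.8, 80.0 and 75.8 there. All 8-cell regions had percentiles of 57.0, 59.0 and 60.6 in the 8-cell libraries, 63.3, 67.0 and 63.8 in morula and 61.6, 64.1 and 64.6 in ICM. Their morula and ICM values overlapped, and members ranked below them in each of the 3 ICM libraries. The 8-cell and morula set, which the ICM did not keep, had medians of 4.34, 4.35 and 4.46 in morula, below the members in each of the 3 libraries, while in the 8-cell libraries it had 4.15, 4.17 and 4.58. The gap between members and sites not kept to ICM was thus wider in morula than in 8-cell embryos, which was not tested.

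**Figure D3:**
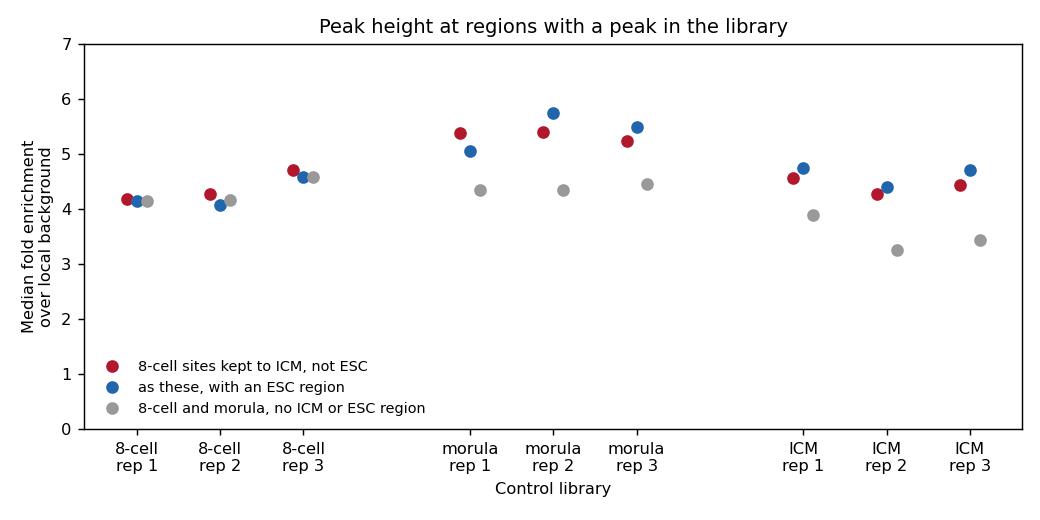
Median fold enrichment over local background (y axis, linear, from 0) at regions with a peak, in each of the 9 control libraries of the 8-cell, morula and ICM stages (x axis); red, members; blue, ESC-positive set; grey, 8-cell and morula set. Red points are above the blue ones in all 3 8-cell libraries and below them in all 3 ICM libraries, and members go from 4.18 to 4.71 at the 8-cell stage to 5.24 to 5.41 in morula and back to 4.27 to 4.57 in ICM.

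The course of single sites was followed over the 6561 members with a peak in all 9 libraries. Their median fold enrichment, as a geometric mean over replicates, was 4.68 in 8-cell embryos, 5.72 in morula and 4.78 in ICM. The median change was 0.24 on the log2 scale from 8-cell to morula and -0.22 from morula to ICM. For 3886 of them (59.2%) morula was the highest stage, for 1393 (21.2%) ICM and for 1282 (19.5%) the 8-cell stage. Among the 2582 ESC-positive regions with a peak in all 9 libraries, 12.4% were highest at the 8-cell stage, 65.6% in morula and 22.0% in ICM. Among all 26359 8-cell regions with a peak in all 9 libraries the shares were 13.0%, 65.6% and 21.5%, so a maximum in morula was general and was not more frequent at members. Fold enrichment is relative to the background of each library, and the part of depth in these shares was not tested.

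The regions called at members were longest in morula. Members had a median length of 679 bp at the 8-cell stage, with quartiles of 390 and 1113 bp and a range of 200 to 4477 bp, and 4232 (30.8%) were at least 1000 bp long. All 8-cell regions had a median of 657 bp. The 13873 morula regions that overlapped members had a median length of 827 bp, where all morula regions had 613 bp, and the 13786 ICM regions had 562 bp, where all ICM regions had 602 bp. These regions were picked by 1 bp of overlap, which favours long ones. The morula lists also held more peaks (142231 to 207459) than the ICM lists (84773 to 116791). The part of both in these lengths was not tested. A morula region covered 97.7% of the median member and an ICM region 77.5%, and 28.6% of members had less than 50% of their length covered in ICM. In the ESC-positive set ICM regions covered a median of 85.2%. Its median length at the 8-cell stage was 624 bp, 55.0 bp less than that of the members, but this order was not stable, as it turned with a stricter peak threshold.

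Members lay on every chromosome. They accounted for 9.66% of the 8-cell regions of chromosome 27 and 14.0% of those of chromosome 22, and the other chromosomes lay between, with a median of 11.4% over 30 chromosomes. In density they ranged from 2.62 per Mb on the X chromosome to 6.53 per Mb on chromosome 19. The X chromosome held 364 members, 10.2% of its 3566 8-cell regions, so its low density was shared by 8-cell regions at large. Of the members, 13361 were on autosomes and 33 on unplaced scaffolds. Of all 120364 8-cell regions, 115953 were on autosomes, so scaffolds held few regions of any kind. The share of members among scaffold regions was not computed. Towards the chromosome ends members were not concentrated: 8.38% of autosomal members lay in the first 10% of the span of their chromosome and 8.64% in the last 10%, beside 8.69% and 9.58% of all 8-cell regions. The transcription-independent set had 7.30% and 15.7%.

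**Figure D4:**
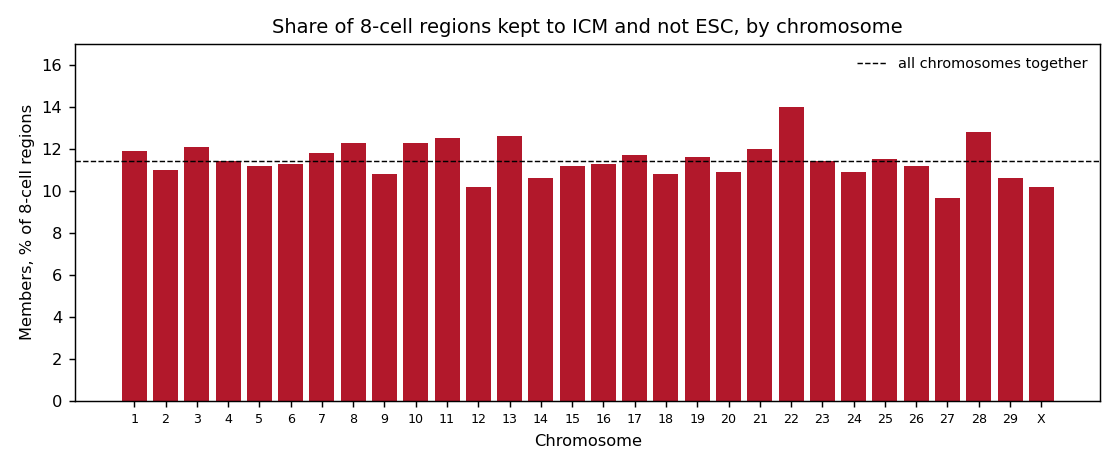
Members as a percent of the 8-cell regions of each chromosome (y axis, from 0) for chromosomes 1 to 29 and X (x axis). The dashed line is the 11.4% of all chromosomes together, and the bars run from 9.66% on chromosome 27 to 14.0% on chromosome 22.

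Most members had another 8-cell region close by, as did the comparison sets. The next 8-cell region of any kind was at a median distance of 5.95 kb, and 70.3% of members had one within 10 kb. This share was 63.7% in the ESC-positive, 69.1% in the 8-cell and morula and 73.2% in the transcription-independent set. Members were only 11.4% of 8-cell regions, and spacing within another set was not computed beside theirs. The next member was at a median of 45.9 kb, and 2366 members (17.2%) had one within 10 kb. These formed 1114 runs of 2 or more members with gaps of at most 10 kb, of which 14 held 4 members and none more. The most compact run of 4, picked out after its span was known, covered 12.8 kb at chr2:19558119-19570901 (ARS-UCD1.2), held 4 8-cell regions, all members, and no ESC region. Regions that were already open before the 8-cell stage were farther away, at a median of 33.2 kb, with 19.9% of members within 10 kb of one. Such older regions were also fewer, since 80.7% of 8-cell regions were new, and the part of their number was not tested. This distance was not computed over all 8-cell regions. For the ESC-positive set the median distance to an older region was 38.8 kb, for the 8-cell and morula set 44.4 kb and for the transcription-independent set 20.0 kb.

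An absent ESC region at the site did not mean that no ESC region lay nearby. The nearest ESC region was at a median of 9.91 kb from a member, and 50.4% of members had one within 10 kb. In the 8-cell and morula set the median was 10.9 kb and the share 47.0%, and in the transcription-independent set 8.29 kb and 55.8%. The distance was not computed over all 8-cell regions, so these values do not show whether such nearness is particular to members. The distances are descriptions of position, since sites along a chromosome are not replicates.

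The clearest examples were sought among members with a peak in all 9 libraries of the 8-cell, morula and ICM stages and with none in any GV oocyte, 2-cell, 4-cell, ESC or 8-cell TBE library. The second condition held for 6605 members (48.0%) and both for 3255 (23.7%). Of the 3255, 3193 also had no peak in the 6 libraries of 2- and 4-cell TBE. The 8 with the largest mean fold enrichment over the 9 libraries are given here, with coordinates in ARS-UCD1.2, counted from 1. They were chosen for these values, which are therefore a description. None of the 8 had a peak in a 2- or 4-cell TBE library, which the choice did not use. Gene annotation of this build was not used here, so neighbouring genes are not named.

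The highest was a 494 bp site at chr21:38188676-38189169, with a fold enrichment of 10.9, 10.8 and 12.4 in 8-cell replicates 1 to 3, 11.3, 12.4 and 10.4 in morula and 7.72, 8.65 and 9.55 in ICM. Its 8-cell and morula values overlapped, and all 3 ICM values were below both. The next, 432 bp at chr9:23081314-23081745, had 8.61, 9.89 and 10.2, then 9.79, 12.0 and 10.1, then 9.11, 9.92 and 10.6, and its 3 stages overlapped. The third, 397 bp at chr2:116947772-116948168, had 9.0, 8.64 and 11.9 in 8-cell embryos, 12.3, 11.8 and 13.0 in morula and 8.28, 6.5 and 6.79 in ICM. Here the ICM values were separate from both earlier stages, with a mean of 7.19 ± 0.953 (SD, n = 3) after 12.4 ± 0.579 in morula, the steepest decline of the 8. A 685 bp site at chr4:92997490-92998174 had 9.06, 8.37 and 11.0, then 9.67, 11.5 and 10.2, then 9.54, 9.61 and 9.24, with the smallest spread between ICM libraries (SD 0.196).

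At chr11:48490098-48490585 (488 bp) the values were 8.71, 10.9 and 12.6 in 8-cell embryos, 10.5, 10.2 and 9.54 in morula and 7.96, 7.20 and 9.81 in ICM. The 898 bp site at chr19:9765066-9765963, the longest of the 8, had 7.73, 9.89 and 11.7, then 10.2, 11.1 and 11.5, then 7.08, 7.75 and 10.1. At both of these ICM values overlapped those of 8-cell embryos, and 8-cell replicate 1 gave the lowest 8-cell value, while at the longest site all ICM values were below all morula values. The site at chr2:77344859-77345263 (405 bp) had 9.12, 6.80 and 10.8 in 8-cell embryos, 10.3, 11.3 and 9.63 in morula and 8.57, 8.61 and 9.91 in ICM. The last, 478 bp at chr4:99811494-99811971, had 9.40, 10.5 and 11.6, then 8.56, 10.1 and 9.76, then 8.06, 7.42 and 9.13, so that its mean was highest in 8-cell embryos, at 10.5 ± 1.10 (SD, n = 3). The nearest ESC region was between 8.98 kb (chr4:92997490-92998174) and 43.6 kb (chr19:9765066-9765963) away from these 8 sites.

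**Figure D5:**
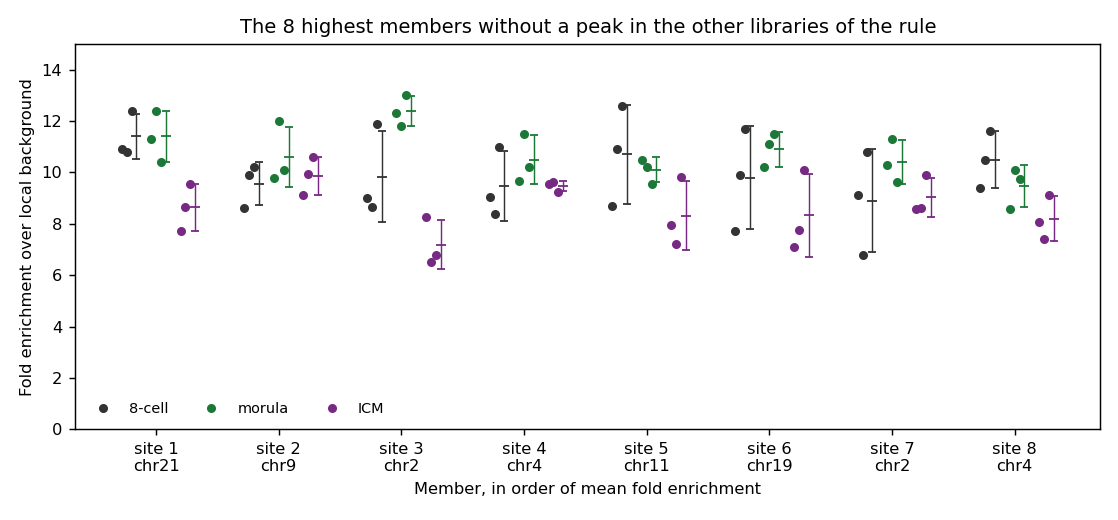
Fold enrichment over local background (y axis, linear, from 0) of the 8 members named in the text, in the order of their mean over 9 libraries (x axis, with the chromosome); black, 8-cell; green, morula; purple, ICM; points are libraries and bars mean ± SD, n = 3. ICM values are wholly below both other stages only at sites 1 and 3, and at site 3 the morula mean of 12.4 is the highest of all.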

How the data were processed

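Accessible chromatin was measured by ATAC-seq in 30 libraries, 3 for each of 10 groups. Per the submitters' processing notes and the study's methods, the authors trimmed reads (Trim Galore, cutadapt 0.4.0) and aligned them with BWA 0.7.17 to the ARS-UCD1.2 assembly. They removed duplicates (PicardTools) and mitochondrial and low-quality alignments (SAMtools 1.7), and used MACS2 2.1.1 to call broad peaks at a q-value of 0.05. Each of the deposited lists belongs to 1 replicate. The authors' lists give for every peak a fold enrichment, which is the ratio of its pileup to the local background, a −log10 p and a −log10 q, all as means over the peak. The deposited score is derived from the −log10 q and was not used.

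Peaks were merged, and regions and sets were made as the results state, with Python 3.11.15, numpy 2.4.6, scipy 1.17.1 and matplotlib 3.10.9. A region took the fold enrichment of its highest overlapping peak. Interval overlaps were tested on simulated data (0 wrong of 200 trials), as were the background level (4 of 4 recovered where the level was off the steps of 0.02 taken by local backgrounds, and 0 of 4 on them, since such values were skipped) and the exact tests (0 wrong of 51). Replicate numbers were not used as pairs, because no label ties a number of the control arm to one of the TBE arm. The 8 named sites are the members that had the highest mean fold enrichment, out of those with a peak in all 9 libraries of the 8-cell, morula and ICM stages and none in the GV oocyte, 2-cell, 4-cell, ESC and 8-cell TBE libraries. The members, sets and tests were chosen with earlier results of these data known. Motifs, sequences, distances to start sites and neighbouring genes had been planned and were not analysed here, since the gene table at hand is of another assembly.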

Additional observations from a re-analysis of the deposited data

How the results depend on the processing

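The number of members depended on how strictly regions were defined. It was 13758 as reported, 8460 when the −log10 q of a peak had to reach 3, 21060 with regions from any replicate and 8675 with regions from all 3 replicates, and 8061 to 11554 with a replicate number left out of every stage, the lowest without replicate 3. Members were 9.40% to 11.9% of the 8-cell regions under all 9 alternatives. The 3 held-out comparisons kept their direction under each of their 12 alternatives, and none of these designs can give a p below the threshold. Their values ranged from 56.6 to 77.8 percentage points for control against TBE, from 25.1 to 35.2 for the ESC-positive against the ESC-negative sites and from 46.5 to 62.0 for ICM against ESC. With 1 library left out they ranged from 56.6 to 73.8, from 25.1 to 32.0 and from 46.5 to 61.6.

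Same-numbered 8-cell control and TBE libraries had correlations of deviations of 0.0069, -0.037 and 0.030 over 8-cell regions. Differently numbered pairs had -0.059 to 0.046, so these values cannot tell whether a number marks a shared collection. Control and TBE embryos came from the same collections, but no label ties their numbers. With the replicate number as a block the differences were 65.6, 29.8 and 56.0 points. The lower share of members than of ESC-positive regions in earlier TBE libraries kept its sign under 10 alternatives at each stage, but its size ranged from -1.68 to -0.0107 points in 2-cell and from -4.39 to -0.128 points in 4-cell TBE. With a number left out it was -1.68 to -0.489 and -4.39 to -0.249, the smallest at the 4-cell stage without replicate 1.

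The mean log2 difference in fold enrichment between members and the ESC-positive set changed sign at a −log10 q of 3 or more (0.011) and was -0.054 to -0.021 with a number left out. The difference in median length turned to -94.0 bp at that threshold and was -1.0 to 78.5 bp with a number left out, the lowest without replicate 1. The cause was not tested. Other windows and distance limits for motifs and start sites (5 settings) were not run. A missing peak is not closed chromatin, and depth could not be derived for 4 of the 30 libraries, all of the 2-cell, 2-cell TBE and 4-cell TBE groups.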
